A study of Mus musculus with 37 samples.

Results

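The NF-kB-responsive microRNAs miR-146a-5p, its paralog miR-146b-5p and miR-155-5p were followed in mouse blood. They were chosen by name from the microRNA count table and are 3 of its 1915 mature microRNAs, each with a single row. The 37 libraries hold small RNA of total blood, drawn from the retro-orbital sinus of C57BL/6 mice that the study describes as male and wild-type. All mice belonged to the learning group, which was trained in the water maze. The youngest mice, aged 12 months, gave 9 libraries. Those aged 13.5 months gave 12, those aged 15 months 5 and those aged 16.5 months 11. Per the study's methods, the 12-month blood was taken before any behavioural test and the later samples a day after a probe test. A figure legend of the study instead describes blood drawn after every water maze procedure, the first at 12 months included, and the labels do not settle which applies. Older age, water maze experience and earlier blood draws therefore cannot be told apart in a comparison with 12 months. The sampling was longitudinal, but the labels do not link a library to a mouse, so repeated samples of one animal were treated as separate samples. The numbers of libraries also differ from the number of mice per group that the study gives.

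The miR-146 microRNAs belong to a feedback loop of innate immunity. Toll-like receptor ligands and inflammatory cytokines activate NF-kB, which switches on miR-146a, and miR-146a in turn represses the adaptor proteins IRAK1 and TRAF6 that carry the signal to NF-kB. miR-146b shares the seed of miR-146a but is made from a separate gene. miR-155 is processed from a non-coding host transcript that rises in activated macrophages, B cells and T cells, and represses brakes on inflammation such as SOCS1 and SHIP1.

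The mature sequences, given 5′ to 3′ from RefSeq (GRCm38.p6) with the seed, bases 2 to 8, in capitals, are printed because the seed decides which messenger RNAs are bound and the remaining bases are what separates the counts of the paralogs.
mmu-miR-146a-5p: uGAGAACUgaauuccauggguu
mmu-miR-146b-5p: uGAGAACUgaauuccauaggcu
mmu-miR-155-5p: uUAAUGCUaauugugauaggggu

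miR-146a-5p and miR-146b-5p have the same seed, and miR-155-5p has another. No further microRNA of the count table with a sequence in the reference, 1623 of the 1915, carried either seed. The paralogs match at 20 of 22 bases. Counted from the 5′ end, and with the base of miR-146a-5p first, they differ by G18A and U21C. Their first 17 bases are identical, and so are the bases just before them in the precursors. With the 2 upstream bases that the authors' counting allowed, a read of up to 19 bases could come from either precursor, and reads from 18 bases were kept. The counts carry no read lengths, so the share of such reads was not tested.

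The Mir146 hairpin lies at chr11:43374397-43374461 on the minus strand (GRCm38), with the mature sequence at chr11:43374435-43374456, and no other gene of the GENCODE annotation covers it. The Mir146b hairpin lies at chr19:46342762-46342870 on the plus strand, in an intron of the protein-coding gene Mfsd13a, with the mature sequence at chr19:46342790-46342811. The Mir155 hairpin lies at chr16:84714140-84714204 on the plus strand, in an exon of its non-coding host gene Mir155hg, with the mature sequence at chr16:84714143-84714165.

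Red cell microRNAs filled these libraries. The first rows summed to between 2619533 and 20268095 counts per library. Of these, miR-486a-5p and miR-486b-5p, whose counts were identical, took 88.6% to 97.0%. Both rows enter the totals, so a read assigned to both counts in each. The share of miR-486 among distinct reads is therefore lower. Outside miR-486 a library held 140292 to 1131713 counts, and this is the depth available to all other microRNAs. Levels are given as CPM, the reads of a microRNA scaled to a common library size with edgeR's TMM factors (counts per 1e+06). Intervals and tests do not separate PCR copies from molecules. Library 12 months replicate 1 was the highest of its age in all 3 microRNAs. On the linear CPM scale it stood apart from the others in miR-146a-5p and miR-155-5p. Results that rest on it are given with and without it.

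miR-146a-5p and miR-146b-5p were present in every library, and miR-155-5p was close to the limit of detection. By mean CPM over the 37 libraries, miR-146a-5p was at place 63 and miR-146b-5p at place 72 of the 323 microRNAs that passed the filter (2 or more reads in 50% of libraries or more), with 36.9 and 25.4 CPM. miR-155-5p was at place 216 with 1.03 CPM. The mature sequences have 22, 22 and 23 bases, so their levels need no correction for length. Other differences in how well each sequence is captured were not corrected for, so places and ratios between microRNAs are those of reads. The counts ranged from 22 to 1024 per library for miR-146a-5p (median 297), from 16 to 637 for miR-146b-5p (median 168) and from 0 to 27 for miR-155-5p (median 8). All 3 were tested. The miR-146 microRNAs had more than 100 reads in 30 and 26 libraries, and miR-155-5p in 0. The opposite arms were nearly unread. Over all 37 libraries, miR-146a-3p had 0 reads, which allows up to 3 reads in all, miR-146b-3p had 5 and miR-155-3p had 4. The 5′ arms had 13065, 9037 and 347 reads, in the order of the sequences above.

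miR-146a-5p was lowest at 12 months. At that age it lay between 7.63 and 69.8 CPM with a median of 17.2 CPM, and only replicate 1 exceeded 25.9 CPM. At 13.5 months it lay between 18.9 and 106 CPM with a median of 37.25 CPM. The 5 libraries of 15 months had 19.4, 55.0, 30.8, 32.1 and 57.2 CPM. At 16.5 months the range was 19.7 to 63.7 CPM with a median of 30.1 CPM. All 12 libraries of 13.5 months, all 5 of 15 months and all 11 of 16.5 months were above the 12-month median, whereas the ranges of all 4 ages overlapped. The means were 22.8 ± 18.4 (SD, n = 9), 47.1 ± 24.4 (n = 12), 38.9 ± 16.5 (n = 5) and 36.5 ± 15.8 CPM (n = 11), from the youngest to the oldest age. CPM values depend on what the total holds: with repeated rows summed these means were 11.6 to 24.3 CPM, and per counts outside miR-486 they were 408 to 774.5 CPM, with the lowest at 12 and the highest at 13.5 months each time.

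miR-146b-5p had a similar but flatter course. At 12 months it lay between 8.41 and 35.98 CPM (median 16.2), and at 13.5 months between 11.5 and 75.8 CPM (median 22.6). The 15-month libraries had 9.001, 49.1, 16.4, 28.9 and 35.0 CPM. At 16.5 months it lay between 15.0 and 40.5 CPM (median 24.4). The ages overlapped throughout, with 9 of 12 libraries at 13.5 months and 10 of 11 at 16.5 months above the 12-month median. The means were 17.7 ± 9.34, 29.5 ± 17.9, 27.7 ± 15.7 and 26.3 ± 8.22 CPM (SD, the same n).

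miR-155-5p did not share this order. It lay between 0.215 and 2.53 CPM at 12 months (median 0.564) and between 0.397 and 2.16 CPM at 13.5 months (median 0.977). The 15-month libraries had 0, 1.18, 1.73, 0.392 and 0.656 CPM. At 16.5 months it lay between 0.820 and 1.78 CPM (median 1.29). Its mean was lowest at 15 months and highest at 16.5 months, with 0.811 ± 0.714, 1.06 ± 0.515, 0.793 ± 0.678 and 1.27 ± 0.363 CPM (SD, the same n) from the youngest to the oldest age. By median, however, 12 months was the lowest age (0.564 CPM) and 15 months the next (0.656 CPM). The 12-month mean includes replicate 1, at 2.53 CPM, where the other libraries of that age had at most 1.11 CPM. The library without a read held 5080826 counts, and 3 counts there would have been 1.04 CPM, above the mean of its own age. The count of 0 thus allows a level of up to 1.04 CPM in that library.

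**Figure D1:**
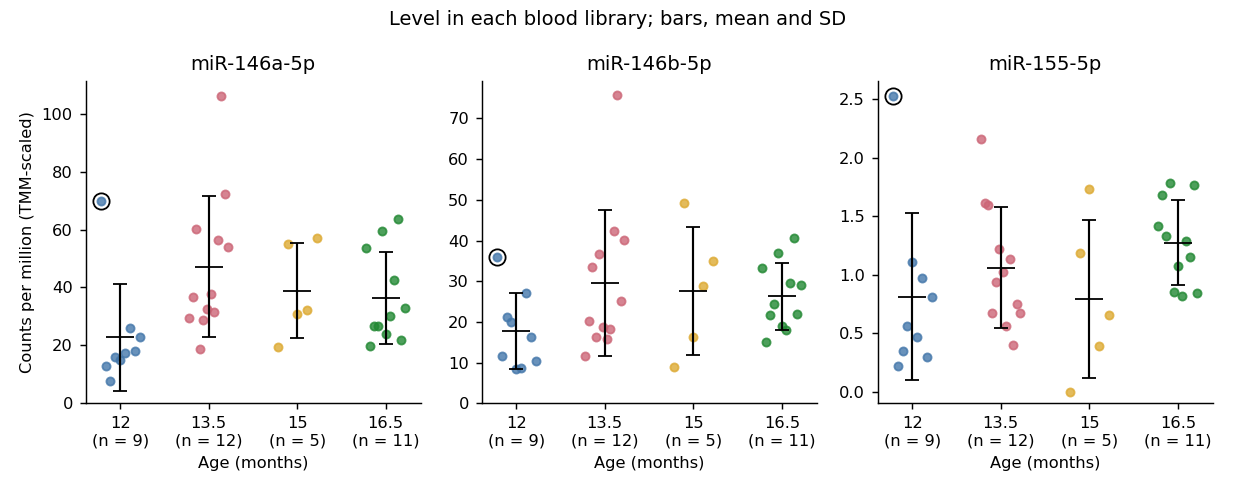
Level of miR-146a-5p, miR-146b-5p and miR-155-5p in CPM (y axis, linear, a separate scale for each microRNA) in each of the 37 blood libraries by age in months (x axis). Dots are libraries and black bars the mean and SD of each age. The ringed dot, 12 months replicate 1, is the highest of its age for all 3 microRNAs, at 69.8, 35.98 and 2.53 CPM.

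Whether the 4 ages differed was asked with edgeR's quasi-likelihood F-test of 3 age coefficients, adjusted with the Benjamini-Hochberg method over the 323 microRNAs. By edgeR 0 of the 3 passed a threshold of 0.05 (1 had an unadjusted p below it, and 1 passed in DESeq2), whereas 104 of all 323 microRNAs did (32.2%). miR-146a-5p had an adjusted p of 0.0553, miR-146b-5p one of 0.204 and miR-155-5p one of 0.514. The spread between libraries of 1 age was wide, with biological coefficients of variation of 0.479, 0.464 and 0.374. miR-146a-5p passed in 7 of 14 alternative analyses, among them DESeq2 (0.0257), and without 12 months replicate 1 (0.00261), without 13.5 months replicate 4 (0.0398) or without 15 months replicate 1 (0.0471). Without 12 months replicate 1, the adjusted p in edgeR was 0.103 for miR-146b-5p and 0.111 for miR-155-5p. miR-146b-5p passed only in the 3 analyses with RUVs factors (4.63e-05 with 1 factor). These factors are estimated from the differences between libraries of the same age.

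Between 12 and 13.5 months miR-146a-5p rose 2.05-fold. Its log2 fold change was 1.04 with an SE of 0.31 (95% interval 0.42 to 1.65, adjusted p = 0.0146, edgeR), and it was higher in 96 of the 108 pairs of a 13.5-month with a 12-month library. It was the single call among the 18 comparisons of the 3 microRNAs between ages, of which 4 had an unadjusted p under 0.05, and DESeq2 also called 1 of the 18. In the same contrast 70 of the 323 microRNAs, or 21.7%, passed, 32 with a rise and 38 with a fall. The split was 10 higher and 52 lower when libraries were scaled by their counts outside miR-486, and 4 and 26 when they were scaled by their total counts. miR-146b-5p was 1.67-fold higher, with a log2 fold change of 0.74, an SE of 0.30 and an interval of 0.15 to 1.33, and did not pass after adjustment (adjusted p = 0.0765, edgeR). For miR-155-5p the log2 fold change was 0.21 with an SE of 0.35 (interval -0.46 to 0.89, adjusted p = 0.714, edgeR).

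Library 12 months replicate 1 bore on these values. Without it, the log2 fold change was 1.45 for miR-146a-5p (adjusted p = 0.000623) and 0.93 for miR-146b-5p (adjusted p = 0.0455), so that both paralogs passed. For miR-155-5p it was 0.64 without this library and did not pass (adjusted p = 0.178, edgeR). With any other single library left out miR-146a-5p still passed and miR-146b-5p did not. Scaling by total counts alone ended the call of miR-146a-5p (log2 fold change 0.77, adjusted p = 0.268, edgeR). Under that scaling the median log2 fold change of all 323 microRNAs was -0.31, against -0.04 with TMM factors. With 1 RUVs factor the log2 fold changes were 1.37 and 1.13 for the paralogs, and both passed (adjusted p = 8.77e-06 and 1.49e-05).

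**Figure D2:**
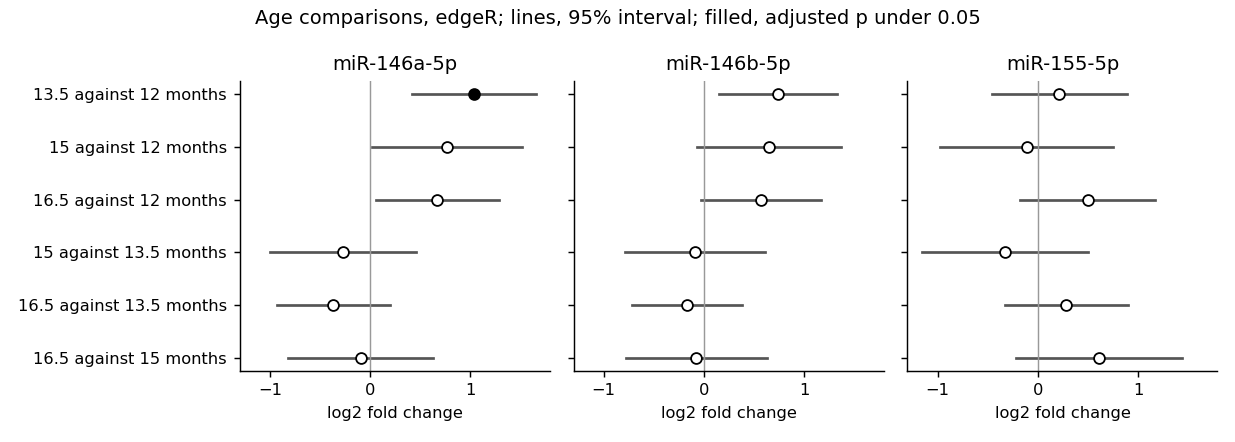
The log2 fold change (x axis) of each microRNA in the 6 comparisons between ages (y axis, older against younger), with lines for the 95% interval. Filled dots mark an adjusted p under 0.05 in edgeR. Of 18 dots 1 is filled, miR-146a-5p at 13.5 against 12 months.

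The later ages stayed above 12 months in both miR-146 means, but no difference passed after adjustment. At 15 against 12 months the log2 fold change was 0.77 with an SE of 0.38 for miR-146a-5p (adjusted p = 0.407, edgeR), 0.65 with an SE of 0.37 for miR-146b-5p (0.450) and -0.11 with an SE of 0.44 for miR-155-5p (0.949). Here 1 of the 323 microRNAs passed, or 0.31%. It was miR-3969, which lies outside the chosen lists and is named after its values were seen (log2 fold change -1.90). At 16.5 against 12 months the values were 0.67 with an SE of 0.31 (0.149), 0.57 with 0.31 (0.214) and 0.50 with 0.34 (0.384), while 14.2% of all microRNAs passed (46, and 11 without 12 months replicate 7). Without 12 months replicate 1, miR-146a-5p also passed at 16.5 months (log2 fold change 1.12, adjusted p = 0.0130, edgeR). miR-146b-5p then had 0.79 (0.0993) and miR-155-5p 0.94 (0.0530), and neither passed. At 15 months the log2 fold changes without that library were 1.23, 0.89 and 0.34 in the same order (0.0813, 0.355 and 0.882), and none passed. With RUVs factors both paralogs passed at 15 months (0.97 and 0.84 with 1 factor) and at 16.5 months (0.97 and 0.95). The 3 comparisons with 12 months share the same 9 libraries.

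After 13.5 months 0 of 9 further differences passed, and the unadjusted p was under 0.05 in 0 of them. From 13.5 to 15 months, where 9.91% of all microRNAs passed, the log2 fold changes were -0.27 for miR-146a-5p, -0.09 for miR-146b-5p and -0.33 for miR-155-5p (adjusted p = 0.755, 0.921 and 0.736, edgeR). From 13.5 to 16.5 months they were -0.37, -0.17 and 0.28 (0.368, 0.713 and 0.537), although 26.6% of all microRNAs passed. With 2 RUVs factors miR-146a-5p passed there (log2 fold change -0.48, adjusted p = 0.0425). From 15 to 16.5 months they were -0.09, -0.08 and 0.61 (0.979, 0.979 and 0.763), with 0.31% of all microRNAs passing, again miR-3969 alone (log2 fold change 4.91). The 95% intervals were broad with 5 libraries at 15 months: for miR-146a-5p at 16.5 against 15 months the interval ran from -0.82 to 0.63, and for miR-155-5p from -0.22 to 1.44. Ordered by their means, the ages of miR-146a-5p ran from 12 over 16.5 and 15 to 13.5 months, and no neighbours in this order differed by the test.

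**Figure D3:**
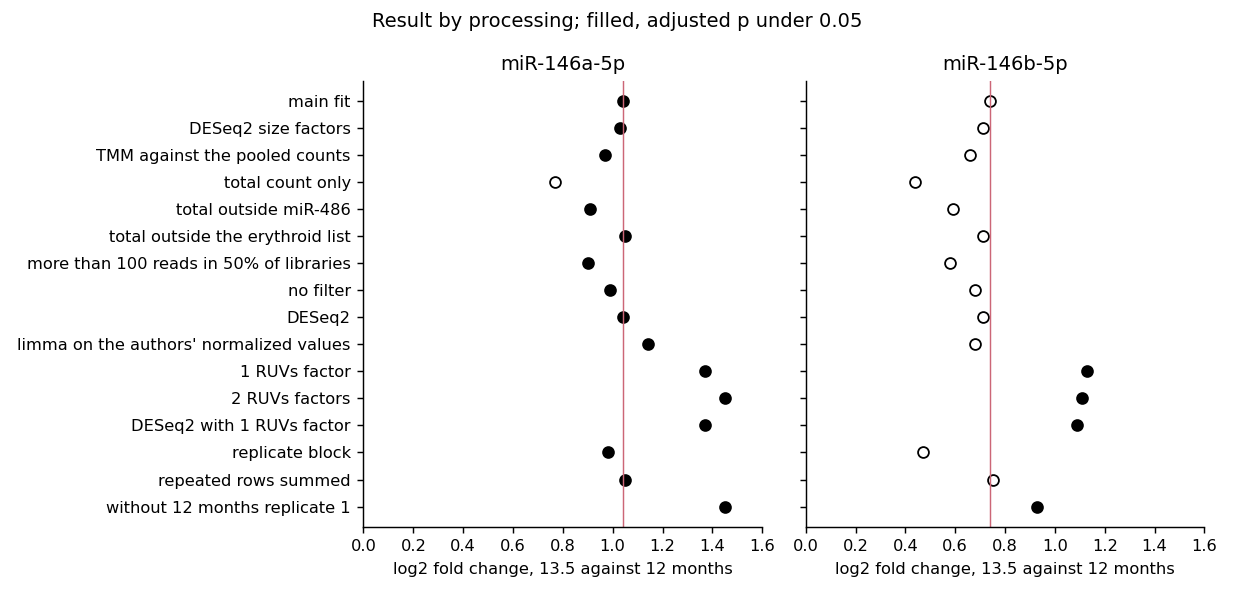
The log2 fold change of miR-146a-5p and miR-146b-5p at 13.5 against 12 months (x axis) in the main analysis, in 14 alternatives and without 12 months replicate 1 (y axis). Filled dots mark an adjusted p under 0.05 and the vertical line the main value, 1.04 and 0.74. miR-146a-5p is filled in all but the scaling by total counts, and miR-146b-5p is filled with RUVs factors and without that replicate.

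The paralogs varied together from library to library. Over 37 libraries, log2(CPM + 1) of miR-146a-5p and miR-146b-5p had a Pearson r of 0.75 and a Spearman rho of 0.75 (permutation test with 100000 resamples, two-sided, adjusted p = 6e-05 for each, over 3 pairs, where 2e-05 is the smallest unadjusted p possible). Without the 2 libraries farthest from the median of miR-146a-5p, r was 0.79. After each age was centred on its own mean, r was 0.71. Within ages r was 0.49 at 12 months (exact permutation test, adjusted p = 0.23, n = 9), 0.75 at 13.5 months (permutation test, adjusted p = 0.017, n = 12) and 0.92 at 16.5 months (permutation test, adjusted p = 0.00054, n = 11). All members of a library share its scaling factor, and reads that match both precursors would be shared too.

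For miR-155-5p 0 of 2 correlations over all libraries passed. Its r was 0.31 with miR-146a-5p (rho 0.28) and 0.16 with miR-146b-5p (rho 0.15), with adjusted p of 0.10 and 0.35 for r and 0.14 and 0.37 for rho by the same permutation test. Without the 2 libraries farthest from the median of the miR-146 microRNA, r was 0.36 and 0.30. With miR-146a-5p, r was 0.84 at 12 months (exact permutation test, adjusted p = 0.057, n = 9), where it fell to 0.49 without 2 libraries, and -0.27 and -0.43 at 13.5 and 16.5 months (permutation test, adjusted p = 0.39 and 0.27, n = 12 and 11). With miR-146b-5p the within-age values were 0.46, -0.47 and -0.28, with adjusted p of 0.23 (exact permutation test), 0.17 and 0.39 (permutation test). The library with the highest miR-146a-5p and miR-146b-5p of all, 13.5 months replicate 10, had the lowest miR-155-5p of its age, at 106, 75.8 and 0.397 CPM. This miR-155-5p value rests on 2 reads, and 13.5 months replicate 4 also had 2.

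**Figure D4:**
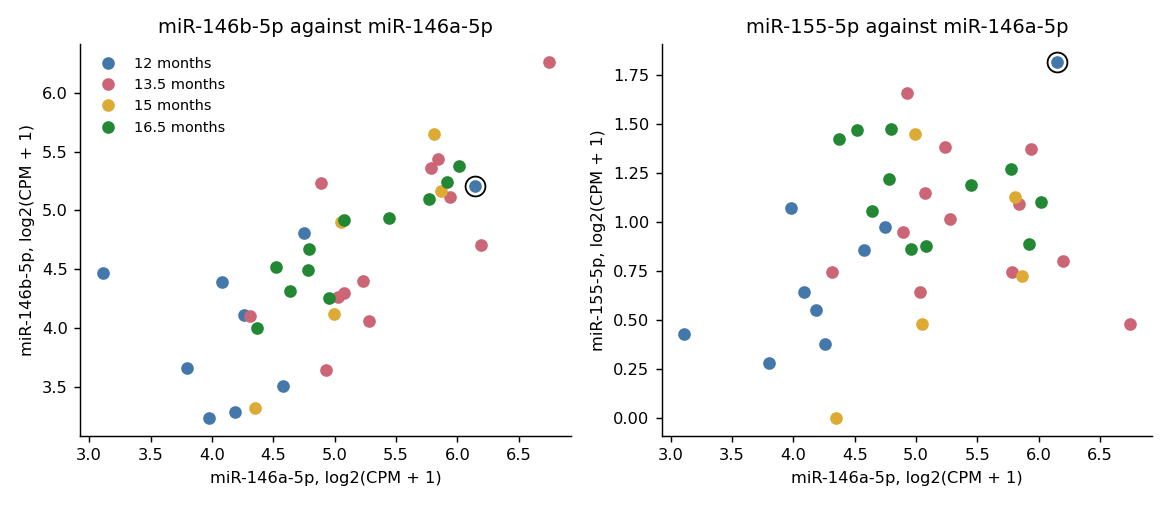
miR-146b-5p (left) and miR-155-5p (right) against miR-146a-5p, both axes in log2(CPM + 1), with 1 dot per library coloured by age. The ringed dot is 12 months replicate 1. The left cloud runs along a line (r = 0.75), and the right one does not (r = 0.31).

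Ratios within a library need no scaling between libraries. miR-146a-5p exceeded miR-146b-5p in 32 of 37 libraries, and the median ratio was 1.44. From the youngest to the oldest age the mean log2 ratio was 0.26 ± 0.83, 0.72 ± 0.52, 0.61 ± 0.43 and 0.42 ± 0.26 (SD, n = 9, 12, 5 and 11), so the differences between ages were smaller than the SD at 12 months. The lowest ratio, 0.366, belonged to 12 months replicate 3, with 22 reads of miR-146a-5p against 61 of miR-146b-5p. The highest was 2.88, at 13.5 months. miR-146a-5p had between 11.3 and 214 times the reads of miR-155-5p, with a median of 32.5.

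Blood holds many cell types, and in bulk blood fewer cells of a type and less RNA per cell cannot be told apart. Leukocytes, which produce the miR-146 microRNAs and miR-155, were represented here by miR-142a, found in all of them, by the lymphoid miR-150 and miR-342 and by the myeloid miR-223. At 13.5 against 12 months, 1 of 2 miR-142a arms fell, miR-142a-3p (log2 fold change -1.18, adjusted p = 0.0128, edgeR), and the abundant miR-142a-5p had -0.42 (0.0797). The summed miR-142a level ranged from 2155 to 3290 CPM at 12 months and from 884 to 3600 CPM at 13.5 months. Of 2 myeloid markers 1 fell, miR-223-3p (-0.89, adjusted p = 0.00955), and their sum ranged from 14.2 to 54.3 CPM and from 5.03 to 28.1 CPM. Of 3 lymphoid markers 0 passed in edgeR, 0 also without adjustment, with miR-150-5p at 0.02 (0.973), and their sum ranged from 34.3 to 739 CPM and from 80.2 to 523 CPM.

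The red cell list moved in both directions in that contrast. Of its 7 microRNAs miR-144-3p, miR-144-5p and miR-451a fell (log2 fold changes -1.56, -1.51 and -1.28) and miR-92a-3p rose (1.72). The list held 30.6% to 45.6% of the counts outside miR-486 at 12 months and 34.1% to 61.4% at 13.5 months. Of the platelet and endothelial markers miR-126a-3p and miR-126a-5p 0 passed (1 without adjustment), and their sum ranged from 0.645 to 4.93 CPM and from 0 to 3.15 CPM. The liver microRNA miR-122-5p had 13 reads in all and was not tested. Of all 323 microRNAs 21.7% passed in this contrast, 32 with a rise and 38 with a fall. The red cell and leukocyte markers that passed fell, apart from miR-92a-3p. Those that did not pass went both ways. miR-150-3p, miR-486a-5p, miR-486b-5p, miR-342-3p and miR-150-5p had 1.07, 0.41, 0.41, 0.07 and 0.02. miR-142a-5p, miR-16-5p and miR-223-5p had -0.42, -0.17 and -0.13. The part of these markers in the rise of miR-146a-5p was not tested.

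Set against the leukocyte marker miR-142a-5p in the same library, a ratio chosen after the data were seen, miR-146a-5p had a mean log2 ratio of -7.15 ± 0.92 (SD, n = 9) among 12-month libraries and -5.48 ± 0.47 (n = 12) among those of 13.5 months. Replicate 1 was the only 12-month library above the lowest of 13.5 months, at -5.19 against -6.27. How many other microRNAs separate as far against miR-142a-5p was not examined. At 15 and 16.5 months the ratio was -6.11 ± 0.65 (n = 5) and -6.38 ± 0.66 (n = 11). The ratio to miR-142a-5p was also higher at 13.5 than at 12 months for miR-146b-5p (-6.20 ± 0.56 against -7.42 ± 0.85). For miR-155-5p it was -10.83 ± 1.04 against -11.86 ± 0.96. miR-142a-5p itself had a log2 fold change of -0.42 between these ages, and a lower denominator raises all of these ratios. The log2 fold changes of miR-146a-5p, miR-146b-5p and miR-155-5p themselves were 1.04, 0.74 and 0.21. Against the lymphoid miR-150-5p, the ratio of miR-146a-5p was -3.03 ± 1.51 at 12 months and -2.26 ± 1.28 at 13.5 months, with wide overlap.

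Other microRNAs known from Toll-like receptor and NF-kB signalling did not move as one group. Of 11 listed, 8 could be tested and 3 passed the F-test over ages, a share near the 32.2% of all microRNAs. At 13.5 against 12 months let-7i-5p, a let-7 microRNA that targets the receptor TLR4, rose from 228 ± 42.3 CPM (SD, n = 9) to 432 ± 154.9 CPM (n = 12), with a log2 fold change of 0.92 (adjusted p = 7.32e-05, edgeR). miR-223-3p, abundant in neutrophils, fell, and so did miR-212-3p, which shares a primary transcript with miR-132 (log2 fold change -0.73, adjusted p = 0.0453). The median of the 8 log2 fold changes was -0.03, close to the -0.04 of all 323 microRNAs. The tested members that did not pass were miR-21a-5p (-0.16), miR-125a-5p (0.26), miR-125b-5p (-0.02), miR-132-3p (-0.04) and let-7e-5p (0.16). miR-9-5p, miR-147-3p and miR-187-3p had 22, 3 and 2 reads in all libraries together and were not tested.

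After 13.5 months let-7i-5p came down again. It fell from 13.5 to 15 months (log2 fold change -1.34, adjusted p = 3.16e-05, edgeR) and was 1.17 lower on the log2 scale at 16.5 than at 13.5 months (adjusted p = 1.78e-07). In the same comparisons miR-146a-5p had -0.27 and -0.37, neither of which passed. The difference between the 2 microRNAs was not tested. miR-212-3p rose from 13.5 to 16.5 months (log2 fold change 1.06, adjusted p = 0.00112). At 15 or 16.5 against 12 months, and at 16.5 against 15 months, 0 of the 8 passed in edgeR, against 1, 0 and 1 without adjustment.

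**Figure D5:**
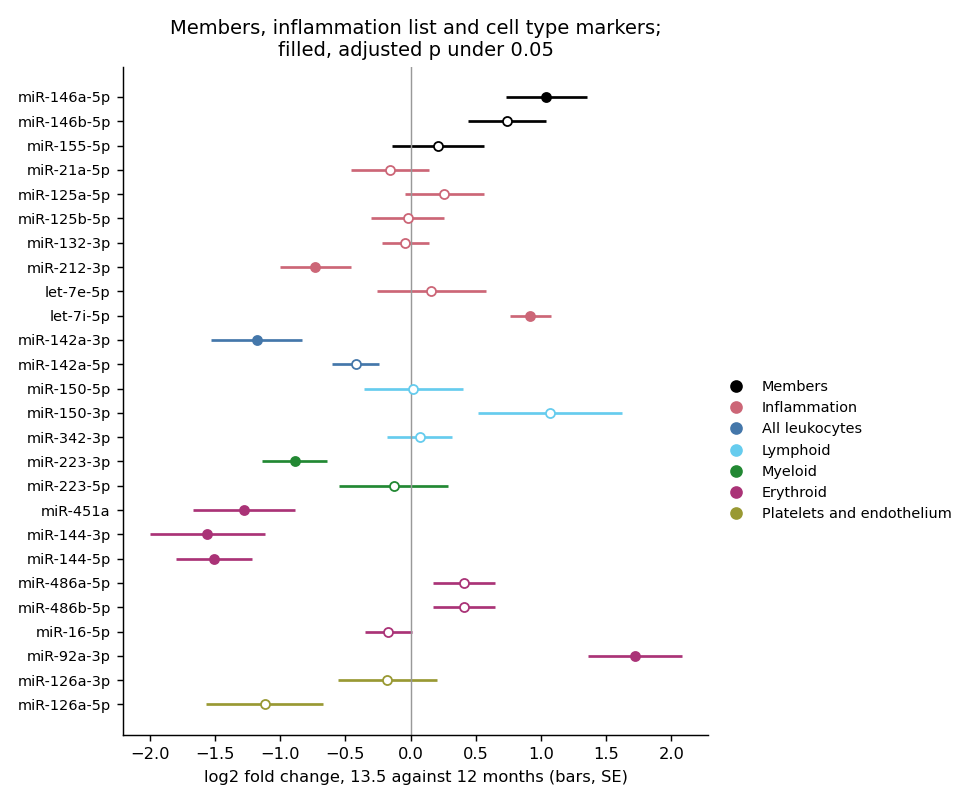
The log2 fold change at 13.5 against 12 months (x axis, bars for the SE) of the 3 microRNAs, the tested inflammation list and the cell type markers (y axis), coloured by list. Filled dots mark an adjusted p under 0.05 in edgeR. miR-146a-5p (1.04) and let-7i-5p (0.92) lie on the right, miR-223-3p (-0.89) and miR-142a-3p (-1.18) on the left, and miR-223-3p is drawn once, under the myeloid list.

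The microRNAs most like each member were sought among the 87 that exceeded 100 reads in 50% of libraries or more, by Pearson r of log2(CPM + 1) over 37 libraries that share their scaling factors. For miR-146a-5p they were miR-146b-5p (0.75), miR-10a-5p (0.69), which is encoded among the Hox genes, and miR-27b-3p (0.59), where the median over 86 microRNAs was 0.07. For miR-146b-5p they were miR-146a-5p (0.75), miR-10a-5p (0.73) and miR-21a-5p (0.70), a microRNA induced in many inflamed tissues, with a median of 0.15. With each age centred on its own mean, miR-10a-5p kept an r of 0.73 and 0.72 with the paralogs, and miR-21a-5p had 0.79 with miR-146b-5p. Neither miR-10a-5p nor miR-21a-5p passed at 13.5 against 12 months (log2 fold changes 0.32 and -0.16, adjusted p = 0.476 and 0.759, edgeR). For miR-155-5p the highest values were lower, 0.46 with miR-128-3p, 0.37 with miR-25-3p and 0.35 with the lymphoid marker miR-342-3p, with a median of 0.05. With each age centred they were 0.40, 0.32 and 0.24. Of these 3, miR-25-3p passed at 13.5 against 12 months (log2 fold change 0.61, adjusted p = 0.00066, edgeR). miR-128-3p (0.43, 0.0573) and miR-342-3p (0.07, 0.881) did not.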

How the data were processed

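The authors removed adapters with cutadapt, checked reads with FastQC 0.11.5 and counted them with miRDeep2 on mm10 and miRBase precursors, without mismatches. They deposited whole-number read counts without normalization, and a second table, a normalized signal for 337 microRNAs, in which each value is a first count row times one factor per library (100% of non-zero values within 1e-06). Samples were grouped by the age in the labels, all libraries were used, and 0 columns of per-sample values were left out.

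From the counts, the first row per microRNA entered, and 323 microRNAs exceeding 1 read in 50% of the 37 libraries or more were kept. edgeR 4.0.16 in R 4.3.3 fitted all ages together with TMM factors, and contrasts compared single ages. The Benjamini-Hochberg method adjusted p-values, with a threshold of 0.05. An SE was taken from a log2 fold change and the root of its F statistic, and 95% intervals are normal intervals from it. The study tested with DESeq2 after removing RUVs factors. RUVs factors from the published formula, DESeq2 1.42.0 and limma 3.58.1 on the deposited normalized signal were alternatives, beside other scalings and filters, repeated rows summed, a replicate block and each library left out. Ratios had 0.5 added to each count and received no test. The fits were tested on simulated data, whose changes were larger than the rise of miR-146a-5p. How often a rise of that size is found was therefore not measured. No 2 libraries of 1 age were alike within counting error (chi-square over its degrees of freedom at least 14.6 in 167 pairs).

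Depth limits precision: outside miR-486, libraries held 140292 to 1131713 counts, and p-values measure only the spread between these samples. The named microRNAs are the 3 members, their opposite arms, the lists of inflammation and cell type microRNAs, microRNAs sharing a seed, and the 3 most like each member. Members and lists were chosen with earlier results of these data known. Coordinates and annotation are those of RefSeq GRCm38.p6 and GENCODE vM21, the build named mm10.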

Additional observations from a re-analysis of the deposited data

Results flagged for a closer look

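In 12 months replicate 1, miR-146a-5p had 69.8 CPM, whereas the other 8 libraries of that age had 7.63 to 25.9 CPM, leaving a gap of 0.706 of the group's range, above Dixon's limit of 0.493. In the same library miR-155-5p had 2.53 CPM against 0.215 to 1.11 CPM in the others, a gap of 0.615 of the range. miR-146b-5p was also the highest of its age there, with 35.98 against 8.41 to 27.1 CPM, within the limit (0.324). Chance flags about 1 in 20 groups, and 2 of the 6 groups examined passed the limit. The groups examined were those of 12 and 15 months, and the other ages were not examined. Among these, 13.5 months replicate 10 had 75.8 CPM of miR-146b-5p, and the next highest library of that age had 42.4 CPM. Whether that gap passes a limit was not tested. Both flags fell on 12 months replicate 1, so they are not independent of each other. The library was not shallow, with 589633 counts outside miR-486, and its miR-142a-5p (2559 CPM), miR-150-5p (130 CPM) and miR-223-3p (25.1 CPM) lay within the range of the other 12-month libraries. Its miR-144-5p (25.7 CPM) was above their highest value, 23.1 CPM. The part of none of these in the high values was tested.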

How the results depend on the processing

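The rise of miR-146a-5p from 12 to 13.5 months kept its direction and passed in 13 of 14 alternatives (log2 fold changes 0.77 to 1.45) and in all 37 analyses without 1 library (0.85 to 1.45). The F-test over ages of miR-146a-5p, with an adjusted p of 0.0553, was near the threshold. It was 0.0426 with DESeq2 size factors, 0.0343 with the total outside the erythroid list, 0.0257 with DESeq2, 0.0133 with limma, 3.9e-05 and 7.21e-06 with 1 and 2 RUVs factors, 4.97e-07 with DESeq2 and 1 RUVs factor, 0.408 with total counts only, and 0.00261 to 0.125 without 1 library. For miR-146b-5p it was 4.63e-05, 3.72e-05 and 7.95e-06 with 1 and 2 RUVs factors and with DESeq2 and 1 RUVs factor, and it did not pass in the other 11. miR-155-5p passed in 0 of the 13 alternatives that kept it, since the filter of more than 100 reads removed it. The cause of these differences was not tested.

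The replicate numbers do not pair the libraries by the labels, and deviations of same-numbered libraries correlated at -0.035 on average (44 pairs). With the replicate block the F-test gave an adjusted p of 0.0881 for miR-146a-5p, the rise to 13.5 months was 0.98 on the log2 scale (adjusted p = 0.0305), and 3 differences that had not passed turned sign: at 15 against 13.5 months 0.02 for miR-146a-5p and 0.14 for miR-146b-5p, and at 16.5 against 13.5 months 0.00 for miR-146b-5p.

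Other reversals, also of uncalled differences, follow. With total counts only they were miR-155-5p at 13.5 against 12 months (-0.15), miR-146b-5p at 15 against 12 months (-0.00), and at 16.5 against 15 months miR-146a-5p (0.26) and miR-146b-5p (0.20). miR-146b-5p was 0.11 with the total outside miR-486 and 0.01 with the stricter filter at 15 against 13.5 months, and 0.05, 0.11, 0.13 and 0.08 with limma, 1 and 2 RUVs factors and DESeq2 with 1 RUVs factor at 16.5 against 15 months. Without 1 library, miR-155-5p ranged from -0.50 to 0.34 at 15 against 12 months, miR-146b-5p from -0.37 to 0.18 at 15 and -0.24 to 0.08 at 16.5 against 13.5 months, and at 16.5 against 15 months miR-146a-5p from -0.26 to 0.10 and miR-146b-5p from -0.30 to 0.21. The correlation of the paralogs was 0.49 at 12 months only, and that of miR-155-5p turned negative at 13.5 and 16.5 months with miR-146a-5p (-0.27, -0.43) and with miR-146b-5p (-0.47, -0.28).

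Of all microRNAs, 104 passed the F-test and 51 of 87 did with the stricter filter. Over the 14 alternatives the contrasts called 30 to 94 microRNAs at 13.5 against 12 months (70 in the main analysis), 0 to 29 at 15 against 12 (1), 17 to 62 at 16.5 against 12 (46), 18 to 73 at 15 against 13.5 (32), 36 to 133 at 16.5 against 13.5 (86) and 1 to 18 at 16.5 against 15 months (1). Without 1 library the counts were, in the same order, 46 to 83, 0 to 3, 11 to 59, 21 to 45, 68 to 90 and 1 to 4. Those over 1.5 times from the main count came at 13.5 against 12 months without 12 months replicate 7 (46), at 16.5 against 12 months without 12 months replicates 4, 7 and 8 (30, 11 and 26), at 15 against 13.5 months without 15 months replicate 5 (21), at 15 against 12 months without 12 months replicate 1 (2), 13.5 months replicates 11 and 12 (2 and 3) and 15 months replicates 1 and 2 (0 and 0), and at 16.5 against 15 months without 16.5 months replicate 7 (4).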
